A study of Mus musculus with 8 samples.

Results

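The 7 genes described here encode most of the MHC class II machinery that a myeloid gene panel measures: Cd74 (the invariant chain), H2-Aa, H2-Ab1, H2-Eb1, H2-DMa, H2-DMb1 and H2-Ob. They were chosen by name from the class II gene family, with earlier results of these data known. They make up 7 of the 754 genes on a NanoString panel for mouse myeloid innate immunity (version V2), which counts barcoded probes hybridized to total RNA. CD11b+ cells had been sorted from the conjunctiva of 10-week-old female wild-type C57BL/6 mice kept without stress (NS) or exposed to desiccating stress (DS) for 5 days. This stress is a dry eye model in which tear secretion is suppressed by a drug and the mice are housed in dry, moving air. In each condition 4 populations were collected: MHCII+ cells, and MHCII- CD64+ cells that were Ly6C-high, Ly6C-inter or Ly6C-low. Each of the 8 samples was 1 pool of cells from many mice, so every group had 1 sample. No replicate spread could be measured, no test was run, and all intervals given are 95% intervals of counting error alone.

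MHC class II molecules present peptides from endocytosed material to CD4+ T cells, and in the mouse they are made by dendritic cells, B cells and activated macrophages. The α and β chains assemble in the endoplasmic reticulum around the invariant chain, which blocks the peptide groove and directs the complex to endosomes. There proteases degrade it, the H2-DM heterodimer exchanges its last fragment for peptide, and H2-DO restrains H2-DM. H2-Aa and H2-Ab1 encode the chains of I-A, and H2-Eb1 encodes the β chain of I-E, whose α chain C57BL/6 mice do not make because of a deletion in its gene. H2-DMa and H2-DMb1 encode chains of H2-DM, and H2-Ob the β chain of H2-DO.

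Class II genes are known to share short promoter elements, the X and Y boxes, to which a complex of RFX, CREB and NF-Y binds and which recruits the coactivator CIITA. RefSeq promoters of the GRCm38.p6 build were used for 5 of the 7 members. Cd74 and H2-Ab1 were not in that selection. Neither was among the promoters with both elements in the wider search described below. In 4 of the 5 members used, letters of both elements were found. These 4 are shown because they are the letters that the members share and that the choice of the genes did not use. Each stretch holds the 120 bases before the annotated start, 5′ to 3′ on the strand of the gene. The second run of capitals is the Y box (TGATTGG), and the first is an X box, here AAC and any 3 bases followed by TGATGC or, in H2-Aa, by GACGTC.
H2-Aa, chr17:34287824-34287943, minus strand: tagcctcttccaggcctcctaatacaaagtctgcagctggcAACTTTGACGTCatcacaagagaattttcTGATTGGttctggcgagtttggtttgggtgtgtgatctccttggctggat
H2-Eb1, chr17:34305747-34305866, plus strand: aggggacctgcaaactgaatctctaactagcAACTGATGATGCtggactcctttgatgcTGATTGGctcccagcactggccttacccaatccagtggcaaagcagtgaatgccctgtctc
H2-DMb1, chr17:34153071-34153190, plus strand: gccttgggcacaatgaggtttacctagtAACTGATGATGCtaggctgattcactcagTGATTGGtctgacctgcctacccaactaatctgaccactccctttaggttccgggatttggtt
H2-Ob, chr17:34238785-34238904, plus strand: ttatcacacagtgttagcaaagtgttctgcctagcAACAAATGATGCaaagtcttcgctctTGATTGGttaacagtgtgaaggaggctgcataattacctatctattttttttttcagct

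The Y box began 50 bases before the start in H2-Aa, 59 in H2-Ob, 61 in H2-Eb1 and 63 in H2-DMb1. The X box began 29 bases upstream of the Y box in H2-Aa and H2-DMb1, 28 in H2-Eb1 and 26 in H2-Ob. Both strands of the 250 bases before the start were searched in 32851 promoters. The Y box letters stood in 7.23% of them and either form of the X box in 0.192%. Both elements stood in 8 promoters, which were those of the 4 members, of H2-DMb2, and of 3 genes that are not on the panel. Neither of these exact runs of letters was found in the 2 promoter entries of H2-DMa, and variant forms of the elements were not searched. The letters had been written down after the promoters of the members were read, so their presence in the members follows from that choice.

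Depth differed widely. NS MHCII+ cells gave 39677 counts over the 754 genes and DS MHCII+ cells 30335, whereas the totals of the 6 MHCII- samples ran from 2728 to 14201. The negative control limit of a sample, which is the mean + 2 SD of its 8 negative control probes, lay between 11.2 and 23 counts. Of the 754 genes, 291 and 213 were above that limit in the NS and DS MHCII+ samples, against 24 to 110 in the MHCII- samples. Itgam, which encodes CD11b, had 91 and 75 counts in MHCII+ cells and 7 to 161 in the others, and it was not above the limit in either Ly6C-high sample. Fcgr1, which encodes CD64, had 33 and 22 counts in MHCII+ cells and was above the limit in none of the samples sorted as CD64+. Of the Ly6C genes, Ly6c1 was measured, with 583 counts in DS Ly6C-inter cells and 2 to 16 in every other sample. In NS this transcript was above the limit in no sample, and in DS its order did not follow the Ly6C labels.

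Transcripts of the 7 members filled 30.2% to 30.4% of the panel's counts in MHCII+ cells and at most 2.42% in the MHCII- cells. Their summed count was 12067 in NS and 9161 in DS MHCII+ cells, which was 30.4% (30.0 to 30.9) and 30.2% (29.7 to 30.7) of all gene counts. For NS Ly6C-high, Ly6C-inter and Ly6C-low cells the sum came to 53, 86 and 54 counts. After DS it came to 95, 105 and 57 for those populations. These were 1.94% (1.46 to 2.53), 1.45% (1.16 to 1.78) and 0.931% (0.700 to 1.21) of the counts in NS, and 2.42% (1.96 to 2.95), 0.739% (0.605 to 0.894) and 1.41% (1.07 to 1.82) in DS. The sum in the MHCII- samples was close to background. It was 1.16 to 2.89 times what 7 negative control probes would give at their mean in the same sample, lowest in NS Ly6C-high cells with 53 counts against 45.5. In pooled RNA, fewer cells that carry a transcript and less of it per cell cannot be told apart.

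The invariant chain had the highest count of the whole panel in MHCII+ cells. Cd74 had 5212 counts in NS and 3967 in DS MHCII+ cells, 13.1% of all counts in both. Its counts in NS Ly6C-high, Ly6C-inter and Ly6C-low cells were 22, 55 and 24, and after DS they were 48, 66 and 29. It was the only member above the negative control limit in all 8 samples, and the lowest MHCII+ value was far above the highest MHCII- value.

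The chains that bind peptide were also among the highest counts of the MHCII+ samples. H2-Aa had 3419 counts in NS and 2635 in DS MHCII+ cells, with 15, 16 and 14 in the NS MHCII- samples (Ly6C-high, Ly6C-inter and Ly6C-low, the order kept below) and 22, 21 and 12 in the DS ones. H2-Ab1, its partner in I-A, had 2075 and 1574 counts in MHCII+ cells, with 7, 5 and 8 in the NS MHCII- samples and 9, 7 and 6 in the DS ones. H2-Eb1 had 1054 and 787 counts in MHCII+ cells, with 5, 3 and 1 in the NS MHCII- samples and 8, 3 and 3 in the DS ones. Among all 754 genes these 3 held the places 2, 4 and 6 by count in both MHCII+ samples. In the MHCII- samples H2-Aa was above the limit in NS Ly6C-inter and DS Ly6C-high cells, and H2-Ab1 and H2-Eb1 in none. H2-Ea-ps, the pseudogene of the I-E α chain in this strain, had 1 to 4 counts and was above the limit in no sample.

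The genes of H2-DM, which load peptide, were also counted mainly in MHCII+ cells. Counts of different genes are not ranked here as amounts of RNA, because probes differ in efficiency. H2-DMa had 186 and 119 counts in NS and DS MHCII+ cells, against 2, 4 and 2 in the NS MHCII- samples and 4, 3 and 3 in the DS ones. H2-DMb1 had 104 and 70 counts in MHCII+ cells, against 1, 2 and 3 in NS and again 1, 2 and 3 in DS MHCII- samples. H2-DMb2, a near-identical copy of H2-DMb1 that is not a member, had 59 and 43 counts in MHCII+ cells and 1 to 4 in the others, and whether the 2 probes tell the copies apart was not tested.

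H2-Ob stood apart from the other members. It had 17 counts in NS MHCII+ cells, above the limit of 11.2, and 9 in DS MHCII+ cells, below the limit of 15.3. Its counts in the MHCII- samples were 1, 1 and 2 in NS and 3, 3 and 1 in DS. The groups did not overlap in raw counts, which held for all 7 members and for 34.4% of the 754 genes, but as a share of the sample's total H2-Ob was highest in DS Ly6C-high cells, with 3 counts of 3929. No difference between neighbouring samples in that order had an interval that excluded 0.

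**Figure D1:**
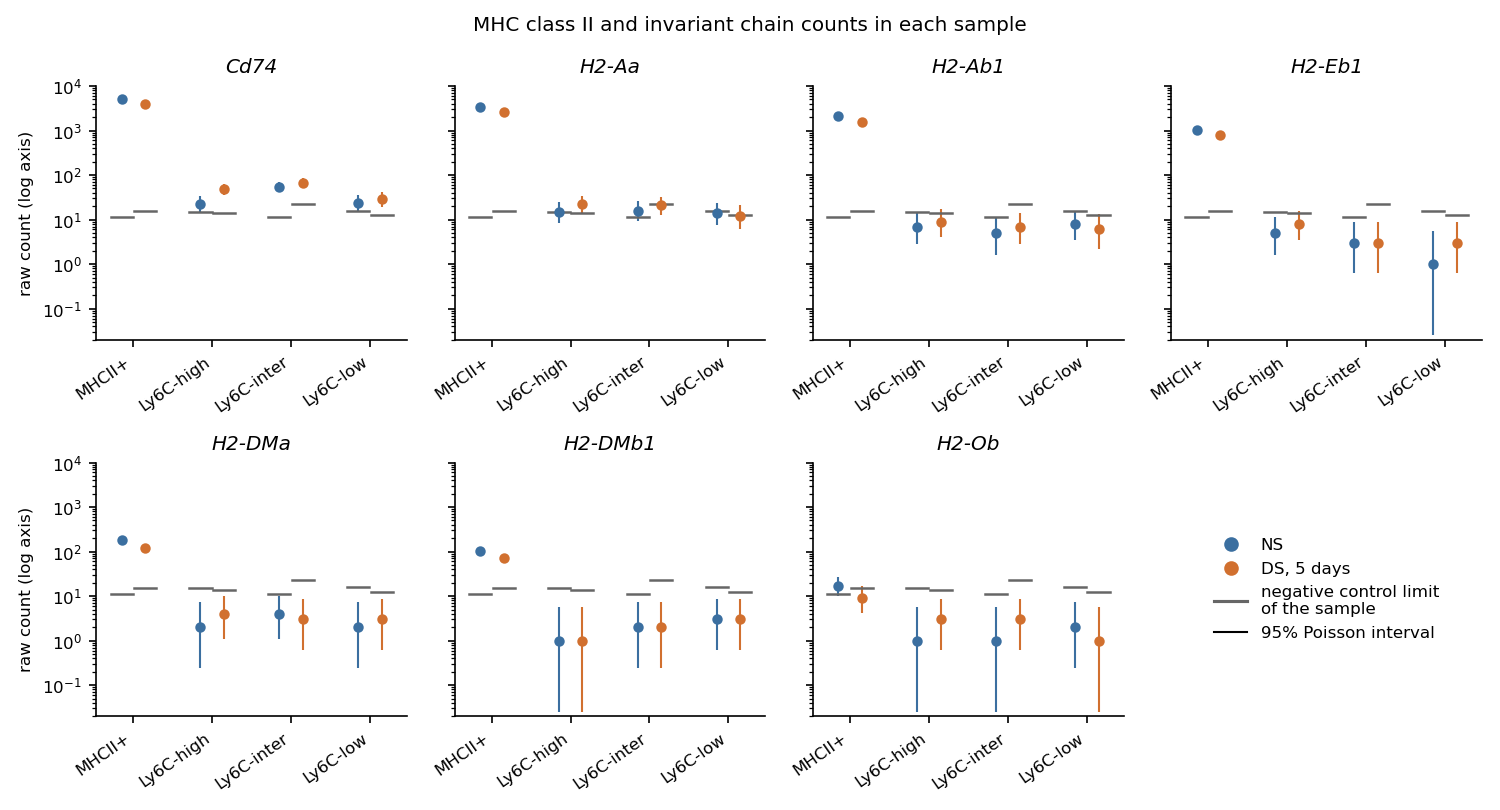
Raw counts of each of the 7 genes on a log axis in the 4 populations, NS in blue and DS in orange, with 95% Poisson intervals and the negative control limit of each sample as a grey bar. For the 6 genes other than H2-Ob both MHCII+ samples lie at 70 counts or more, and all MHCII- samples at 66 or fewer.

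Ordered by share of the total, both MHCII+ samples held the top places for 6 of the 7 members, and the step down to the highest MHCII- sample excluded 0 in each of them, as it did for 1.06% of the 754 genes, members included. Neighbours in the order of the 6 MHCII- samples did not differ beyond counting error for any single member. For the summed members 1 of the 5 neighbouring pairs did, with DS Ly6C-low above NS Ly6C-low cells. Between the highest and the lowest MHCII- sample, Cd74 ranged from 1.22% in DS Ly6C-high to 0.414% in NS Ly6C-low cells, a log2 difference of 1.56 (0.83 to 2.33). The ends also lay further apart than counting error for H2-Aa at 1.92 (0.99 to 2.86), H2-Ab1 at 2.38 (0.64 to 4.12) and H2-Eb1 at 3.56 (0.66 to 9.03). They did not for H2-DMa, H2-DMb1 and H2-Ob. Those ends were picked by their values, so the differences are descriptions. H2-Ab1 had 7 counts at both ends, of totals of 2728 in NS Ly6C-high and 14201 in DS Ly6C-inter cells. H2-Aa had 22 counts of 3929 in DS Ly6C-high and 21 of 14201 in DS Ly6C-inter cells. H2-Eb1 had 8 counts in DS Ly6C-high and 1 in NS Ly6C-low cells. Of these counts of the 3 genes, the 22 of H2-Aa alone was above the negative control limit.

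The make-up of the sum in counts, which needs no scaling between samples, was nearly the same in both MHCII+ samples. Cd74 took 43.2% (42.3 to 44.1) of the 7 genes' counts in NS and 43.3% (42.3 to 44.3) in DS, H2-Aa 28.3% and 28.8%, and H2-Ab1 17.2% in both. H2-Eb1 took 8.73% and 8.59%, H2-DMa 1.54% and 1.30%, H2-DMb1 0.862% and 0.764%, and H2-Ob 0.141% and 0.0982%. For every 100 counts of the invariant chain there were 65.6 counts of H2-Aa, 39.8 of H2-Ab1 and 20.2 of H2-Eb1 in NS, and 66.4, 39.7 and 19.8 in DS. For the loading gene H2-DMa there were 3.57 and 3.0.

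In counts, the Ly6C-inter samples were richer in the invariant chain than MHCII+ cells. Their Cd74 intervals overlapped those of all other MHCII- samples. Cd74 took 64.0% (52.9 to 74.0) of the members' counts in NS and 62.9% (52.9 to 72.1) in DS Ly6C-inter cells. H2-Ab1 took 5.81% (1.91 to 13) and 6.67% (2.72 to 13.3) there. All 4 of these intervals lie clear of the shares in MHCII+ cells. In the other MHCII- samples the share of Cd74 ran from 41.5% (28.1 to 55.9) in NS Ly6C-high to 50.9% (37.3 to 64.4) in DS Ly6C-low cells, with intervals that held the share in MHCII+ cells. With the mean of the negative controls taken off each gene, Cd74 took 63.3% to 82.0% of the sum in the 6 MHCII- samples. In MHCII+ cells its share before subtraction was 43.2% in NS and 43.3% in DS. After subtraction a share above these was thus not particular to Ly6C-inter cells. The Ly6C-inter samples still held the highest share within each condition, 80.2% in NS and 82.0% in DS, but the share in DS Ly6C-low cells was close to these.

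**Figure D2:**
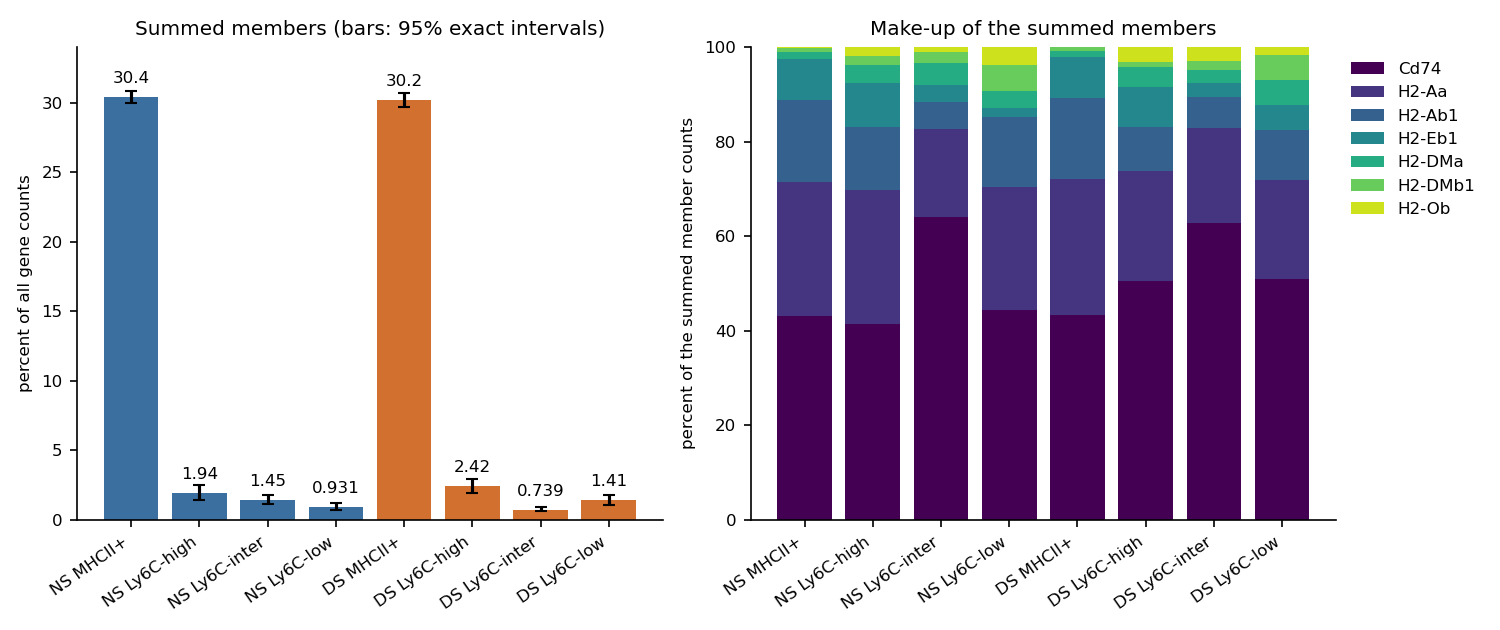
Left, summed counts of the 7 genes as a percent of all gene counts in each sample, with 95% exact intervals; right, the percent of that sum taken by each gene. The sum is near 30% in both MHCII+ samples and at most 2.42% in the others, and the 2 Ly6C-inter samples have the tallest Cd74 segments.

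The first question the sort poses is how much more class II RNA the MHCII+ cells held than each MHCII- population. The cells had been selected on MHCII protein, so the direction of this difference is what the sort selected on, and its size is a description. After scaling to equal totals the summed members of NS MHCII+ cells were higher by a log2 ratio of 3.97 (3.58 to 4.39) than in Ly6C-high cells, a 15.7-fold difference. They were higher by 4.39 (4.09 to 4.72), 21.0-fold, than in Ly6C-inter cells, and by 5.03 (4.64 to 5.44), 32.7-fold, than in Ly6C-low cells. In DS the log2 ratios were 3.64 (3.35 to 3.95), 5.35 (5.07 to 5.64) and 4.43 (4.05 to 4.83) in the same order, or 12.5-fold, 40.8-fold and 21.5-fold. The size of these ratios rested on the scaling. Over the 6 comparisons they ran from 3.64 to 5.35 here, from 6.45 to 7.83 with no scaling, from 6.88 to 8.03 with positive controls, from 4.85 to 5.74 with reference genes and from 2.95 to 5.58 after subtraction of the negative control mean. The order of the 3 MHCII- populations also turned, and with no scaling the smallest ratio was that of Ly6C-inter cells in both conditions, 7.13 in NS and 6.45 in DS.

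By the fold used in the study between populations, a log2 ratio of at least 2, 6 of the 7 members were past it in each NS comparison. Few genes were, since 1.86% of the 754, members included, passed against Ly6C-high, 1.72% against Ly6C-inter and 1.86% against Ly6C-low cells. In DS the counts were 5, 6 and 5 of 7, while 2.25%, 3.18% and 2.39% of all genes passed against Ly6C-high, Ly6C-inter and Ly6C-low cells. The members' median log2 ratio was 3.86, 3.83 and 4.99 in NS and 3.42, 4.81 and 4.19 in DS, whereas the median over all genes lay between -2.28 and -0.91. These negative medians stood beside a 30% share of the members in the MHCII+ totals and beside MHCII- samples in which most values were background. With no scaling the median over all genes was between 0.00 and 1.58.

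Cd74, H2-Aa, H2-Ab1 and H2-Eb1 were past the fold in all 6 comparisons. The largest ratio was that of H2-Eb1 against NS Ly6C-low cells, 7.27 (4.79 to 12.57), which set 1054 counts against 1. The loading genes passed less uniformly. H2-DMa was just short of the fold against DS Ly6C-high cells at 1.95 (0.55 to 3.85), and H2-DMb1 against DS Ly6C-low cells at 1.64 (0.04 to 3.95). With every value raised to the negative control limit of its sample, H2-DMb1 turned to the other direction in 4 of the 6 comparisons and H2-DMa in 1. The counts of both genes were below that limit in all 6 MHCII- samples. H2-Ob passed in none. Its log2 ratios ran from -1.36 against DS Ly6C-high to 1.35 against NS Ly6C-inter cells, with every interval including 0 and with a sign that depended on the scaling.

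**Figure D3:**
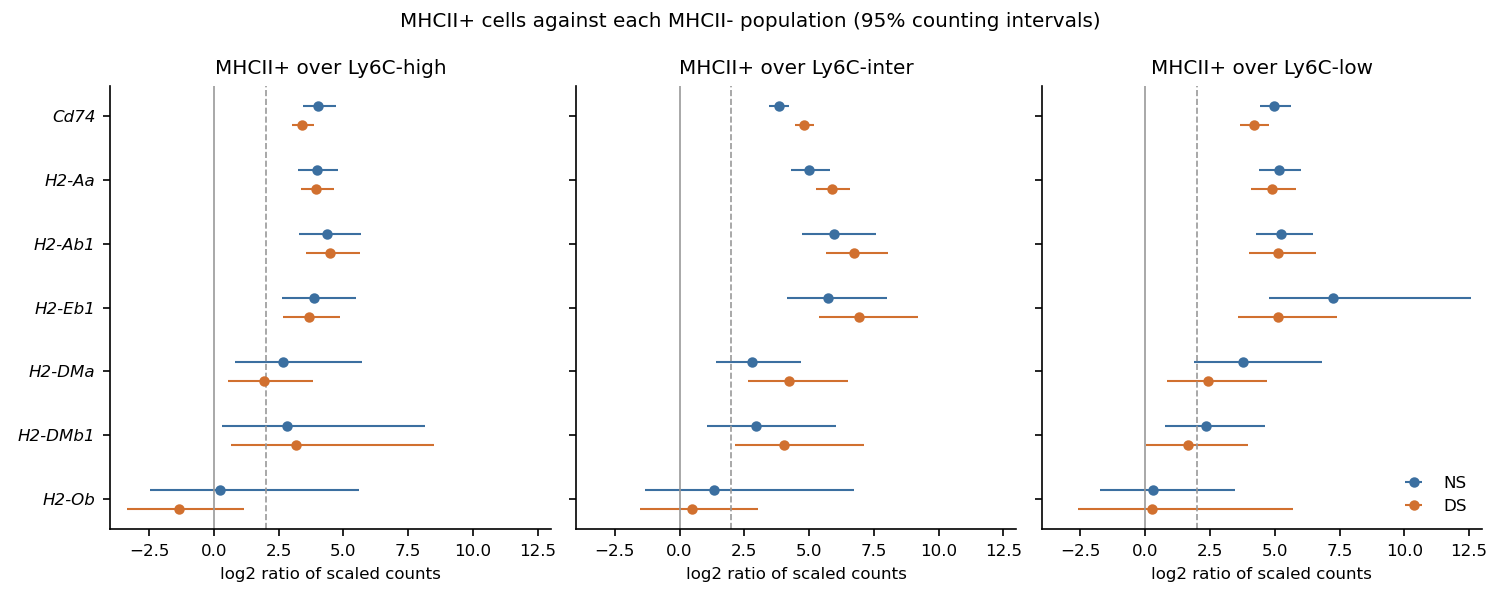
Log2 ratios of scaled counts of MHCII+ cells over each MHCII- population for the 7 genes, NS in blue and DS in orange, with 95% counting intervals; the solid line marks 0 and the dashed line the fold of 2. The chains of I-A, H2-Eb1 and Cd74 lie right of the dashed line in every panel, and the intervals of H2-Ob cross 0 in every panel.

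The second question was what 5 days of desiccating stress did to these genes within each population. In MHCII+ cells all members but H2-Ob were above the negative control limit in both conditions. There the sum differed by a log2 ratio of -0.01 (-0.05 to 0.03) between DS and NS. Cd74 differed by -0.01 (-0.07 to 0.05), H2-Aa by 0.01 (-0.06 to 0.09), H2-Ab1 by -0.01 (-0.11 to 0.08) and H2-Eb1 by -0.03 (-0.17 to 0.10). The intervals of the loading genes also included 0, with values of -0.26 (-0.60 to 0.08) for H2-DMa, -0.18 (-0.64 to 0.27) for H2-DMb1 and -0.53 (-1.88 to 0.72) for H2-Ob. None of the 7 reached the fold the study used for stress, a log2 ratio of 1.5 in either direction, which 2.65% of all genes did in this comparison. For the I-A chains and the invariant chain, counting error thus left room for log2 differences of -0.11 to 0.09 between these 2 pools at this scaling, and differences between pools of mice were not measured.

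In the MHCII- populations the same comparison rested on few counts and moved with the scaling. In Ly6C-high cells the summed members differed by 0.32 (-0.18 to 0.83), with 53 counts in NS and 95 in DS. In Ly6C-inter cells they were lower in DS by a log2 ratio of -0.97 (-1.39 to -0.54), although the raw sum was 86 in NS and 105 in DS, and with no scaling the ratio was 0.29. In Ly6C-low cells they were higher in DS by 0.59 (0.03 to 1.16), with raw sums of 54 and 57, and the ratio was -0.11 when scaled to positive controls and -0.04 when scaled to reference genes. The total count of DS over NS was 2.39 in Ly6C-inter and 0.699 in Ly6C-low cells.

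Of single members 0, 1 and 1 of 7 were past the fold of 1.5 in Ly6C-high, Ly6C-inter and Ly6C-low cells, where 20.7%, 21.2% and 27.5% of all genes were. Both were at background: H2-DMa in Ly6C-inter cells at -1.67, from 4 counts in NS and 3 in DS, and H2-Eb1 in Ly6C-low cells at 2.10, from 1 count and 3. The members' medians were 0.15, -0.99 and 0.52, beside medians over all genes of -0.16, -0.26 and 0.52. The interval of Cd74 in Ly6C-inter cells excluded 0, at -0.99 (-1.53 to -0.45), from 55 counts in NS and 66 in DS. The other member intervals in the MHCII- cells included 0. The share of all genes with an interval that excluded 0 was not computed, so this is a description.

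The DS Ly6C-inter sample stood apart in its other transcripts. Ly6c1 had 583 counts there against 8 in NS, and Itgam 161 against 21, scaled log2 ratios of 4.93 (3.94 to 6.15) and 1.68 (1.02 to 2.41). S100a9, a calprotectin subunit of neutrophils and monocytes, had 55 against 16, a scaled log2 ratio of 0.53 (-0.30 to 1.43) that included 0. The 9 macrophage markers summed to 2.94% of the counts in DS and 7.13% in NS Ly6C-inter cells. The 4 monocyte markers measured of 6 summed to 4.23% and 0.252%. In raw counts the macrophage markers summed to 417 in DS and 424 in NS, and the monocyte markers to 601 and 15. Neutrophil markers, 6 of 6 measured, summed to 0.528% and 0.504%, with only S100a9 above the limit. Their part in the lower class II share was not tested.

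**Figure D4:**
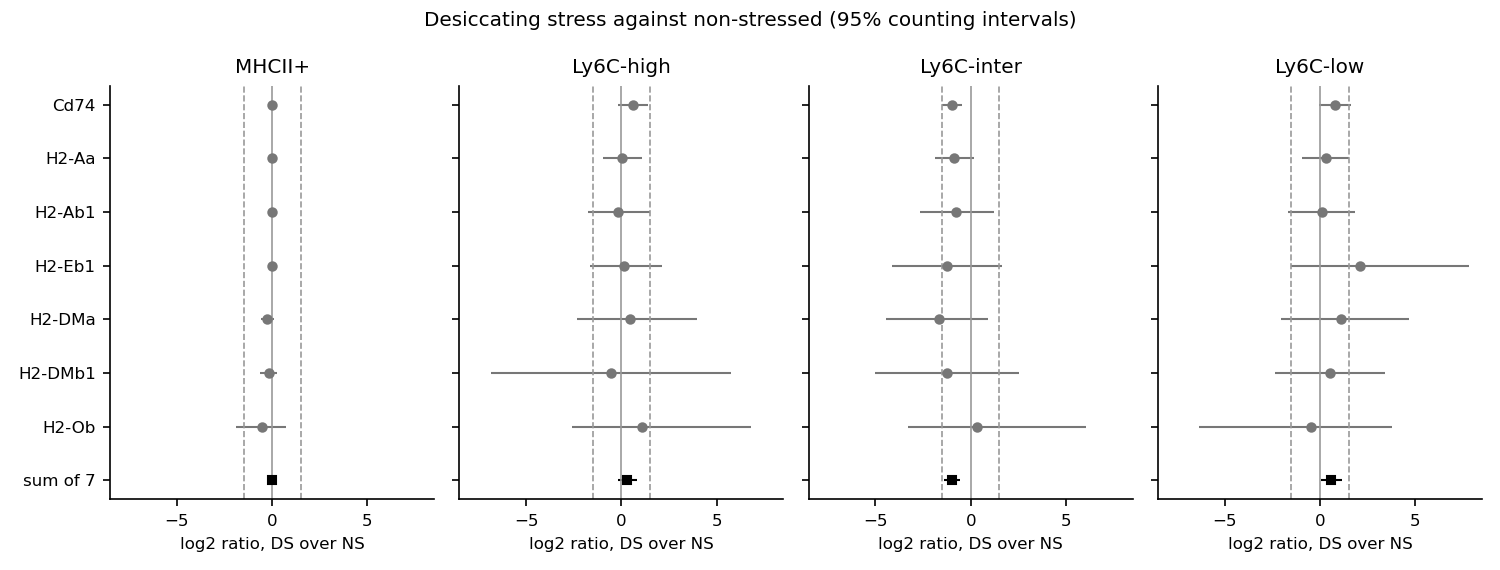
Log2 ratios of scaled counts, DS over NS, for the 7 genes (grey circles) and their sum (black squares) in each population, with 95% counting intervals; dashed lines mark 1.5 in either direction. In MHCII+ cells the points of Cd74, H2-Aa, H2-Ab1, H2-Eb1 and the sum lie between -0.03 and 0.01, and in the MHCII- populations the intervals of single genes are wide.

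Class I molecules present cytosolic peptides and are made by nearly all cells, so their heavy chains H2-K1 and H2-D1 give a comparison within each sample that no scaling enters. Together they took 1.5% to 2.64% of the counts in all 8 samples, 1.86% in NS and 1.82% in DS MHCII+ cells. The count of the 7 class II members per count of H2-K1 and H2-D1 was 16.3 (15.2 to 17.6) in NS and 16.6 (15.2 to 18.1) in DS MHCII+ cells. In NS it was 1.26 (0.826 to 1.94) in Ly6C-high, 0.683 (0.513 to 0.905) in Ly6C-inter and 0.353 (0.254 to 0.484) in Ly6C-low cells. In DS it was 1.44 (1.04 to 2.0), 0.292 (0.233 to 0.364) and 0.934 (0.640 to 1.36). Class I shares thus overlapped between MHCII+ and MHCII- samples, and class II shares did not.

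Between NS and DS the ratio was lower in Ly6C-inter and higher in Ly6C-low cells, each with intervals that did not overlap, and in MHCII+ and Ly6C-high cells the intervals overlapped. In Ly6C-inter cells class I counts had gone from 126 to 359, and in Ly6C-low cells from 153 to 61. With the mean of the negative controls taken off each gene the ratio was 16.5 and 16.9 in MHCII+ cells. It was then 0.845, 0.538 and 0.192 in the NS and 1.19, 0.205 and 0.596 in the DS samples of Ly6C-high, Ly6C-inter and Ly6C-low cells.

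**Figure D5:**
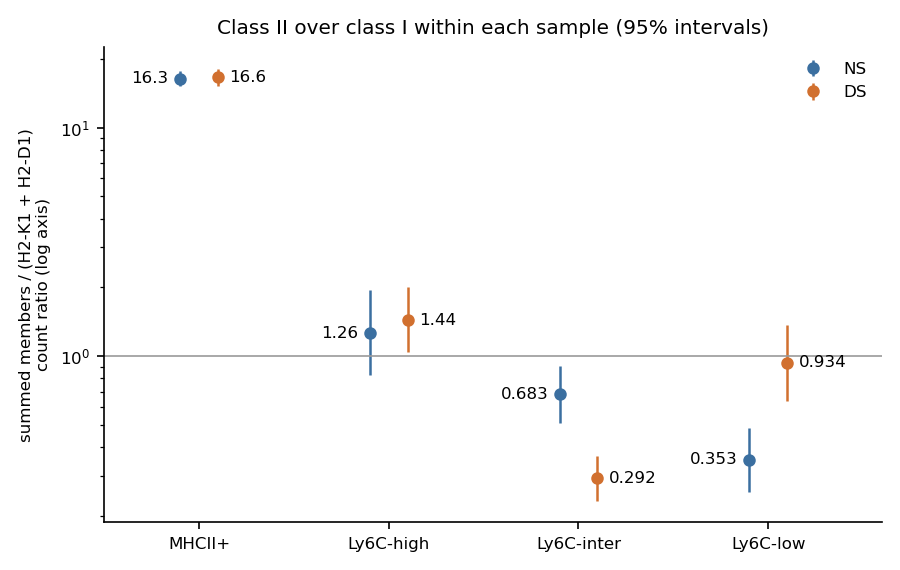
Counts of the 7 class II genes divided by counts of H2-K1 and H2-D1 in each sample on a log axis, NS in blue and DS in orange, with 95% intervals; the line marks a ratio of 1. The 2 MHCII+ samples sit together at 16.3 and 16.6, and the MHCII- samples between 0.292 and 1.44.

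Few of the genes that act with class II passed the fold in MHCII+ cells, as did few genes of the whole panel. The lists held 58 partner genes, of which 37 were measured and 31 were above the limit in at least 1 sample. At the fold of 2 the number of the 37 higher in MHCII+ cells was 0, 1 and 1 against NS and 1, 3 and 0 against DS Ly6C-high, Ly6C-inter and Ly6C-low cells. They were H2-DMb2 in 4 comparisons, and Cd83 and Icosl against DS Ly6C-inter cells. The share of all genes was 1.72% to 3.18% in these comparisons, as given above. Between 2 and 10 of the 37 partners, 5.41% to 27.0%, were lower by the same fold, and 17.9% to 52.1% of all genes were. The partners' median log2 ratio lay between -1.02 and -0.06, above the medians of all genes. These counts moved with the scaling, and with none 8 to 29 of the 37 were higher past the fold, beside 13.1% to 46.9% of all genes, while the members' medians were then 5.91 to 7.76.

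In the class II loading and transcription list 3 of 12 genes were measured: H2-DMb2, and Irf4 and Irf8, factors of dendritic and B cell development. CIITA itself and the RFX genes are not among the genes of the table used here. Of the endosomal proteases 3 of 6 were measured, Ctss, which cleaves the invariant chain, Ctsl and Ctsd. Ctss had 283 counts in NS and 205 in DS MHCII+ cells and 12 to 50 in the MHCII- samples. Once scaled, no protease was higher in MHCII+ cells past the fold of 2 in any comparison.

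All 7 costimulatory and coinhibitory genes were measured. Cd80, Cd86, Cd40, Cd83, Icosl and Cd274 were above the limit in at least 1 sample, and Pdcd1lg2 in none. Cd83, which stabilizes class II at the surface of dendritic cells, had 267 and 218 counts in NS and DS MHCII+ cells and 7 to 21 in the others. Cd86, a ligand of CD28, had 56 and 36 counts in MHCII+ cells and 2 to 16 in the others. Cd274, which encodes PD-L1, had its highest count in DS Ly6C-inter cells, with 154 against 3 in the NS sample and 1 to 9 in every other sample.

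Of the class I and CD1 list 12 of 17 genes were measured, and H2-K1, H2-D1, H2-M3, H2-T23, Tap1, Tap2, Tapbp, Psmb8, Calr and Cd1d1 were above the limit somewhere. Of genes of the signals that act on class II, 8 of 12 were measured, and those above it included Ifngr1, Irf1, Il4ra, Stat6, Csf2ra and Il10ra. Of the 4 genes for the ligand and coreceptors of the invariant chain, Mif and Cxcr4 were. No gene of these 3 lists was higher in MHCII+ cells past the fold in any of the 6 comparisons. In MHCII+ cells none of the 37 partners passed the fold of 1.5 between DS and NS in either direction. In Ly6C-inter cells Irf1, a factor induced by interferon, had 123 counts in DS and 17 in NS, a log2 ratio of 1.60, next to class II counts of 105 and 86.

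Other class II-bearing cell types could also be present in the MHCII+ gate, although lineage antibodies against B cells, T cells, NK cells and granulocytes had been used to exclude these. Of the B cell markers 1 of 7 was measured, Ms4a1, with 1 to 6 counts and above the limit in no sample. Of the dendritic cell markers 6 of 10 were measured. Their sum was 0.131% and 0.142% of counts in NS and DS MHCII+ cells and 0.106% to 0.513% in the others. In raw counts that sum was 52 and 43 in MHCII+ cells and 11 to 15 in the others. Itgax (12 counts) and Ccr7 were above the limit in NS MHCII+ cells alone, and no dendritic cell marker was in any other sample. The macrophage markers were well above background in MHCII+ cells, with 3.77% and 3.20% of counts and 9 and 8 of 9 genes above the limit. They were not particular to these cells, as they took 1.53% to 7.13% of counts in the MHCII- samples. In those samples, which had lower totals, 0 to 7 of the 9 were above the limit. No T or NK cell marker was measured. The part of dendritic cells in the class II counts was not tested.

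Profiles across the 8 samples were compared with that of the summed members, as the root mean square difference of log2 scaled values after centring each gene on its mean. Among the 213 genes above the limit in both MHCII+ samples, the 6 members that qualified had differences of 0.230 for Cd74 to 1.02 for H2-DMb1 and held the 6 closest places, as members partly make up the sum. The nearest other genes were Ear3 at 1.23, H2-DMb2 at 1.28, Crip1 at 1.28, Lpl at 1.34 and Cd83 at 1.36. Ear3 had 157 and 155 counts in NS and DS MHCII+ cells and 3 to 9 in the MHCII- samples, Crip1 1196 and 1018 against 39 to 75, and Lpl, the lipoprotein lipase gene, 101 and 97 against 2 to 8. Genes entered this ranking through their counts in MHCII+ cells and were ordered by likeness to a sum that is high there, so a high level in those samples follows from the selection.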

How the data were processed

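Per the labels and the study's methods, RNA of 8 sorted pools was hybridized to the panel, and the authors deposited raw counts per probe for 754 genes, 8 negative and 6 positive control probes. The smallest count is 1, so a value of 1 may be a floor, and normalization settings were not given in the sources used here. All 8 columns matched a sample title. Counts were scaled to equal totals over the genes, and scaled values under 1 were set to 1 before log2. This scaling ties each ratio to the total, which the members dominate in MHCII+ cells. Intervals are exact Clopper-Pearson or Poisson intervals at 95%, for counting error only. With 1 sample per group no p-value was computed. The fold limits were log2 ratios of 2 between populations and 1.5 between DS and NS. Named are the 7 members, partner genes above the negative control limit (mean + 2 SD) in at least 1 sample, and the 5 genes most like the members. Members and lists were chosen with earlier results of these data known. Alternatives were 5 other scalings, 4 treatments of low values and other fold limits. The scripts, tested on simulated data, ran in Python 3.11.15 with scipy 1.17.1, pandas 2.3.3, numpy 2.4.6 and, for figures, matplotlib 3.10.9. The deposited gene symbols were matched to RefSeq promoters (GRCm38.p6) by symbol.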

Additional observations from a re-analysis of the deposited data

Results flagged for a closer look

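After scaling to equal totals, the summed class II members had ratios of opposite direction with desiccating stress in 2 populations, and both directions turned under other scalings. The log2 ratio of DS over NS was -0.97 in Ly6C-inter and 0.59 in Ly6C-low cells, each with a counting interval that excluded 0. The ratio was 0.29 in Ly6C-inter cells with no scaling, and in Ly6C-low cells -0.11 with positive controls and -0.042 with reference genes. The medians over all genes were -0.26 and 0.52. The difference between the populations was not tested, since each ratio compares 1 pool with 1 pool. The raw sums were 86 and 105 counts in Ly6C-inter and 54 and 57 in Ly6C-low cells. The class II count per class I count went from 0.683 to 0.292 in Ly6C-inter cells and from 0.353 to 0.934 in Ly6C-low cells. Markers of macrophages went from 7.13% to 2.94% of counts in the first and from 4.26% to 4.14% in the second. Their raw sums were 424 in NS and 417 in DS Ly6C-inter cells, and 247 and 168 in Ly6C-low cells. The part of these markers in the result was not tested.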

How the results depend on the processing

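In MHCII+ cells the summed log2 ratio of DS over NS was -0.40 with no scaling, -0.39 when scaled to positive controls, -0.092 to reference genes, -0.16 to Ppia and Rpl19, and 0.043 after subtraction of the negative control mean. In Ly6C-high cells it was 0.84 with no scaling. In Ly6C-inter cells it was 0.29 with no scaling, -0.019 with positive controls and -0.081 with Ppia and Rpl19. In Ly6C-low cells it was -0.11 with positive controls, -0.042 with reference genes and 1.19 after subtraction. The number of members past the stress fold became 1 with no scaling in Ly6C-high cells, and after subtraction 1 in MHCII+, 2 in Ly6C-high and 0 in Ly6C-inter cells. It became 0 in Ly6C-inter and Ly6C-low cells with positive controls, with reference genes and with values raised to the limit. It also became 0 in Ly6C-inter cells with Ppia and Rpl19, with log2(value + 1) and at a fold of 2. Against the MHCII- populations, values raised to the limit turned H2-DMa to -0.24 and H2-DMb1 to -1.08 in NS Ly6C-high, H2-DMb1 to -0.063 in NS Ly6C-low and to -0.63 and -0.42 in DS Ly6C-high and Ly6C-low comparisons. Subtraction put Cd74 at 63.3%, 80.2% and 65.6% of the sum in NS Ly6C-high, Ly6C-inter and Ly6C-low cells and at 64.8%, 82.0% and 78.7% in DS, and H2-Ob at 0.0343% in DS MHCII+ cells. The cause of these moves was not tested. The numbers of members past the fold of 2 between populations stayed within 1.5 times under every alternative run, as did all counts under the floor of 3 and with totals taken without the members. The background-subtracted class II per class I ratio was added after the data had been seen. No paired analysis was possible because each group had 1 sample, so the groups shared fewer than 2 replicate numbers, and the 4 populations were compared one by one and not used as replicates of stress. Depth is the limit in the MHCII- cells, where 8 of 42 member values were above the negative control limit.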
